A study of Mus musculus with 6 samples.

Results

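The GABA-B receptor and its KCTD auxiliary subunits were described here in the mouse habenula through the transcripts of 6 genes. They were taken by symbol from a table of 55359 genes and are Gabbr1 and Gabbr2, which encode the principal subunits, and Kctd8, Kctd12, Kctd12b and Kctd16, which encode the auxiliary subunits. Each symbol matched 1 row. Total RNA of the habenula, a paired epithalamic nucleus, was sequenced in 3 WT libraries, and in 3 others with the label Tet2 cKO, a conditional knockout of the DNA dioxygenase gene Tet2. All came from C57BL/6 mice aged 2 months. Which driver, cells and exons the deletion used was not stated, nor was it stated that the libraries are from different mice, so a p-value reflects only how far these libraries vary, which may be technical.

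The GABA-B receptor is the metabotropic receptor for GABA and works as an obligate heterodimer. GABBR1 binds GABA, and GABBR2 carries the receptor to the cell surface and activates G proteins of the Gi/o class, which open GIRK potassium channels, inhibit presynaptic calcium channels and inhibit adenylyl cyclase. KCTD proteins bind the intracellular tail of GABBR2 together with G protein βγ subunits and set how fast the response starts and desensitises, and KCTD12 and KCTD12B are the desensitising forms. In the medial habenula GABA-B receptors are known for raising, rather than lowering, transmitter release from the terminals in the interpeduncular nucleus, and Kctd8 and Kctd12b are known there.

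The start regions of both principal subunit genes are shown because TET enzymes act on methylated cytosine, most of which lies in CG dinucleotides. DNA methylation was not measured in these libraries. Each sequence runs 5′ to 3′ on the gene's strand, from 250 bases before to 50 bases after the start of the gene in RefSeq (GRCm38.p6), and capitals mark each CG. The Gabbr1 region is chr17:37045716-37046015 on the plus strand and the Gabbr2 region is chr4:46991665-46991964 on the minus strand. In GENCODE release M21 Gabbr2 starts at 46991873, which lies inside this region and upstream of the RefSeq start. Other starts of Gabbr1, whose isoforms have separate promoters, are not shown.
Gabbr1: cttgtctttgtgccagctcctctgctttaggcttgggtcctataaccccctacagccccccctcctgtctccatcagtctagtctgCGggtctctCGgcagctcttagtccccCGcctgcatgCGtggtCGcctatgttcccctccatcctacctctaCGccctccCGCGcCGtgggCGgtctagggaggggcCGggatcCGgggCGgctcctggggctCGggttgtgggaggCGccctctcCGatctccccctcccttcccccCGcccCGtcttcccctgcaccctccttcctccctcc
Gabbr2: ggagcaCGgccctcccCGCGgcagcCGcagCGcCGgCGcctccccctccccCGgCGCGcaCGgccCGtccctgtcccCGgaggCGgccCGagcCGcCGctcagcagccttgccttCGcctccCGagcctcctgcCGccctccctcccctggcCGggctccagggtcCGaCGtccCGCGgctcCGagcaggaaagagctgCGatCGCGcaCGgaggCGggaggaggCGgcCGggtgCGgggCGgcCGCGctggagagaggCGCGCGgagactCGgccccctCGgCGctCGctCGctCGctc
The motif CG reads the same on both strands. It occurred 18 times in the Gabbr1 region and 46 times in the Gabbr2 region. Among 32851 RefSeq start regions of 300 bases, 94.6% held at least 1 CG, and the median was 7, with quartiles of 3 and 20. The Gabbr2 region held more CG than 98.4% of these regions did, and the Gabbr1 region more than 70.3% did. The regions of Kctd12 and Kctd8 held 45 and 14. Of the 6 genes, these 4 matched the RefSeq table.

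Library totals lay between 16089676 and 17917987 counts. WT replicate 3 stood apart, with a score of 24.3 on the first principal component (40.6% of the variance) against -12.0 to 7.11 in the other 5 libraries, so results that rest on it are given with and without it. Tet2 stood at 3.54 ± 0.147 FPKM for WT and 4.15 ± 0.279 FPKM in Tet2 cKO-labelled libraries (SD, n = 3 each). FPKM is the authors' count per kilobase of exon, scaled by the library total. The whole-gene count of Tet2 includes undeleted exons and went against the direction of the label, so every direction below belongs to the Tet2 cKO-labelled libraries as such. Markers of medial habenula neurons were present: all 8 of 8 passed the filter on low values, and Tac2, a tachykinin gene, stood at 30.8 to 57.9 FPKM. Their summed level was 385.8 to 402.4 FPKM for WT and 323.2 to 385.7 FPKM in Tet2 cKO-labelled libraries, so each Tet2 cKO-labelled library lay below each WT library, by a small margin at the nearest pair. Calb2 was the largest term of this sum, at 306, 273 and 332 FPKM for WT and 274, 251 and 274 FPKM in Tet2 cKO-labelled libraries. Taken singly, all 8 markers overlapped between the groups, whereas 6.8% of all tested genes did not. The median log2 difference over the 8 markers was -0.0057. The part of the difference in summed level in the values of the 6 genes was not tested.

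None of the 6 genes passed the test between the groups. The edgeR quasi-likelihood test called 0 of 6 at a Benjamini-Hochberg adjusted p under 0.05, and over all 14539 tested genes (mean of at least 1 FPKM) it called 0.0%. At an unadjusted p under 0.05 it called 0 of 6, against 2.57% of all tested genes. DESeq2 and limma also called 0 of the 6 members. In no member were the groups' FPKM ranges apart, as they were in 6.8% of all tested genes. Adjusted p = 0.9999 for each of the 6 genes. Differences are given on the log2 scale as Tet2 cKO minus WT, with 95% intervals.

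Gabbr1, the GABA-binding subunit, was the most abundant member (ENSMUSG00000024462, chromosome 17, 37045966 to 37075067, plus strand, GRCm38). It stood at 209, 216 and 168 FPKM in WT replicates 1 to 3 and at 199, 187 and 211 FPKM in Tet2 cKO-labelled libraries. WT replicate 3 was lowest and WT replicate 2 highest, and the groups overlapped. The means were 198 ± 25.9 and 199 ± 12.2 FPKM (SD, n = 3 each). The log2 difference was 0.0010 (interval -0.22 to 0.22), so the interval runs from 0.860-fold to 1.16-fold. Its 23132 to 29317 counts per library placed it 111th of the 14539 tested genes by mean level. The gene has 11 transcripts in GENCODE release M21, and the count merges the isoforms that start at separate promoters, among them GABBR1a with its sushi domains and GABBR1b without them.

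Gabbr2, the G protein-coupling subunit, followed (ENSMUSG00000039809, chromosome 4, 46662305 to 46991873, minus strand, GRCm38). Its levels were 83.4, 84.4 and 57.4 FPKM for WT and 73.0, 77.9 and 76.7 FPKM in Tet2 cKO-labelled libraries. The 3 Tet2 cKO-labelled libraries lay between WT replicate 3 and the other WT libraries. The log2 difference was 0.0069 (interval -0.28 to 0.30). Without WT replicate 3 all 3 Tet2 cKO-labelled libraries lay below both WT libraries, as did 10.5% of all tested genes, and the difference was -0.14 (interval -0.28 to -0.0024, unadjusted p = 0.0467, edgeR adjusted p = 0.835). That comparison did not pass either. With WT replicate 3 out, 0 of 6 members and 0.0206% of all tested genes passed, and 5.95% of all tested genes had an unadjusted p under 0.05.

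**Figure D1:**
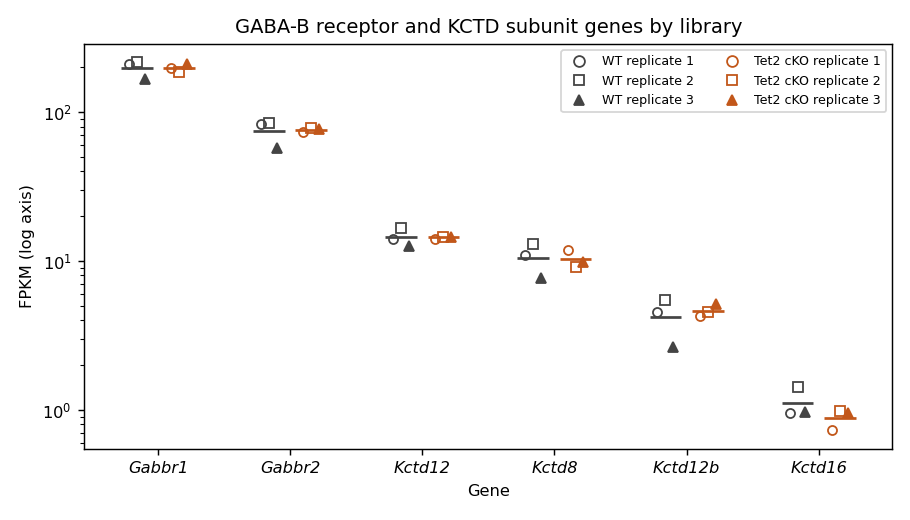
FPKM (log axis) of the 6 genes in each library, with WT in grey and Tet2 cKO in orange, marker shapes for replicates and bars for group means (n = 3). The groups overlap for every gene, and WT replicate 3 (filled grey triangle) is the lowest of the 6 libraries for all but Kctd16.

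Kctd12, which encodes a desensitising auxiliary subunit, led the KCTD members (ENSMUSG00000098557, chromosome 14, 102976581 to 102982637, minus strand, GRCm38). It stood at 14.1, 16.8 and 12.6 FPKM for WT and at 14.2, 14.6 and 14.5 FPKM in Tet2 cKO-labelled libraries. The SD was 0.218 FPKM among the Tet2 cKO-labelled libraries and 2.11 FPKM in WT. The log2 difference was -0.016 (interval -0.24 to 0.20). Its exons overlap Gm26778 on the opposite strand and Mir5130 on the same strand. Reads of overlapping genes on opposite strands cannot be told apart because the strand setting is not given. Strand cannot separate overlapping reads of Kctd12 and Mir5130 under any setting.

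Kctd8 encodes a non-desensitising auxiliary subunit (ENSMUSG00000037653, chromosome 5, 69109285 to 69341679, minus strand, GRCm38). Its levels were 10.9, 12.9 and 7.64 FPKM for WT and 11.9, 9.12 and 9.91 FPKM in Tet2 cKO-labelled libraries. The highest and the lowest library were both WT. The log2 difference was -0.033 (interval -0.42 to 0.35), and without WT replicate 3 it was -0.21 (interval -0.45 to 0.040). Exons of Kctd8 overlap Gm24368 on the opposite strand.

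Kctd12b, the X-linked relative of Kctd12, varied most within WT (ENSMUSG00000041633, chromosome X, 153685154 to 153696391, minus strand, GRCm38). Its levels were 4.58, 5.52 and 2.63 FPKM for WT and 4.25, 4.56 and 5.12 FPKM in Tet2 cKO-labelled libraries. The coefficient of variation was 34.7% in WT and 9.50% in Tet2 cKO-labelled libraries. The log2 difference was 0.13 (interval -0.36 to 0.61), and without WT replicate 3 it was -0.12 (interval -0.37 to 0.13).

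Kctd16, which encodes a further non-desensitising subunit, was close to the filter (ENSMUSG00000051401, chromosome 18, 40256962 to 40531630, plus strand, GRCm38). It had 57, 80 and 60 counts in WT and 44, 61 and 59 in Tet2 cKO-labelled libraries, and FPKM values of 0.95, 1.43 and 0.97 against 0.73, 0.98 and 0.95. WT replicate 2 was highest, and the other 5 libraries overlapped between the groups. The log2 difference was -0.34 (interval -0.86 to 0.19, which is 0.550-fold to 1.14-fold), the widest interval of the 6. Its mean of 1.002 FPKM lay just above the minimum of 1, so all 6 members were tested. Exons overlap AC098707.1 on the opposite strand.

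**Figure D2:**
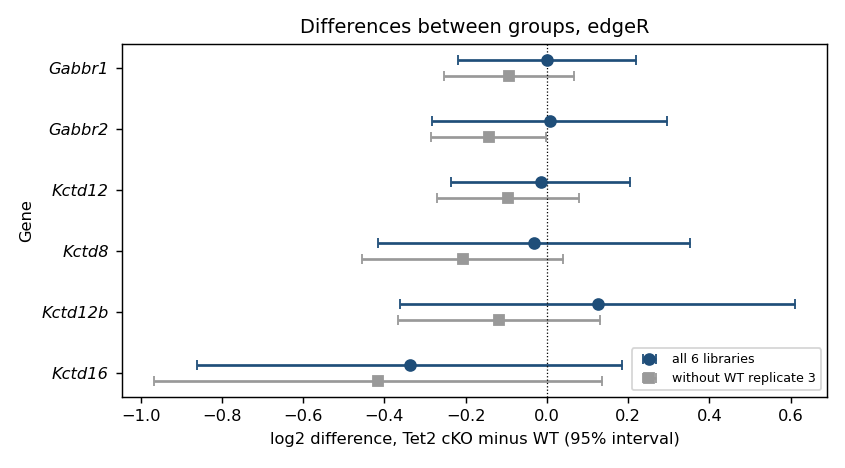
The log2 difference (Tet2 cKO minus WT, edgeR) of each gene with its 95% interval, for all 6 libraries (blue) and without WT replicate 3 (grey). Every interval over all libraries covers 0. Without that library the 6 differences lie below 0 and only the Gabbr2 interval (-0.28 to -0.0024) stays clear of 0. WT replicate 3 is the lowest library for 5 of the 6 genes, so leaving it out raises their WT mean and moves their differences down. No member passed in that fit (smallest edgeR adjusted p = 0.835, Gabbr2).

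The order of levels per length was the same in all 6 libraries: Gabbr1, Gabbr2, Kctd12, Kctd8, Kctd12b and Kctd16. The level of Gabbr1 was 2.40 to 2.92 times that of Gabbr2, which was 4.55 to 5.92 times that of Kctd12. The closest neighbours were Kctd12 and Kctd8, whose ratio was 1.19 to 1.65 within libraries. Kctd12 was above Kctd8 in each of the 6 libraries, although the ranges of the 2 genes over libraries overlapped. Kctd8 was at 1.94 to 2.91 times the level of Kctd12b, and Kctd12b at 2.71 to 5.82 times that of Kctd16, and in both cases the ranges were apart. Counts scaled by the library total, with no correction for length, kept the order in every library, but there Kctd8 and Kctd12b were the closest pair, with a ratio of 1.33 to 2.00 and overlapping ranges, and Kctd12 and Kctd8 were apart (ratio 2.14 to 2.96). These ratios without length do not compare transcript levels between genes.

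Receptor transcripts exceeded those of the auxiliary subunits in each library. The summed FPKM of Gabbr1 and Gabbr2 was 293, 300 and 225 in WT and 272, 265 and 288 in Tet2 cKO-labelled libraries. The summed FPKM of the 4 KCTD genes was 30.5, 36.6 and 23.9 in WT and 31.0, 29.2 and 30.5 in Tet2 cKO-labelled libraries. Both sums were lowest in WT replicate 3, and their ratio stayed between 8.19 and 9.59 in all 6 libraries. As log2 of the KCTD sum over the receptor sum, the groups differed by -0.0051 (exact two-sided permutation p = 1). The log2 ratio of Gabbr1 to Gabbr2 was 1.41 ± 0.120 in WT and 1.39 ± 0.112 in Tet2 cKO-labelled libraries (SD, n = 3 each; exact permutation p = 1). With 3 libraries against 3 this test cannot give a p below 0.1.

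Kctd12 took 48.3% ± 4.0 of the summed KCTD FPKM for WT and 47.7% ± 2.09 in Tet2 cKO-labelled libraries (SD, n = 3 each). Kctd8 took 34.4% ± 2.03 and 34.0% ± 3.78, Kctd12b 13.7% ± 2.31 and 15.4% ± 1.56, and Kctd16 3.69% ± 0.511 and 2.94% ± 0.523. WT replicate 3 had the highest Kctd12 share (52.9%) and the lowest Kctd12b share (11.0%) of the 6 libraries. For the 4 shares the exact two-sided permutation p was 0.8, 0.9, 0.4 and 0.3, in the order just given. Over the 6 shares and ratios each adjusted p was 1.

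**Figure D3:**
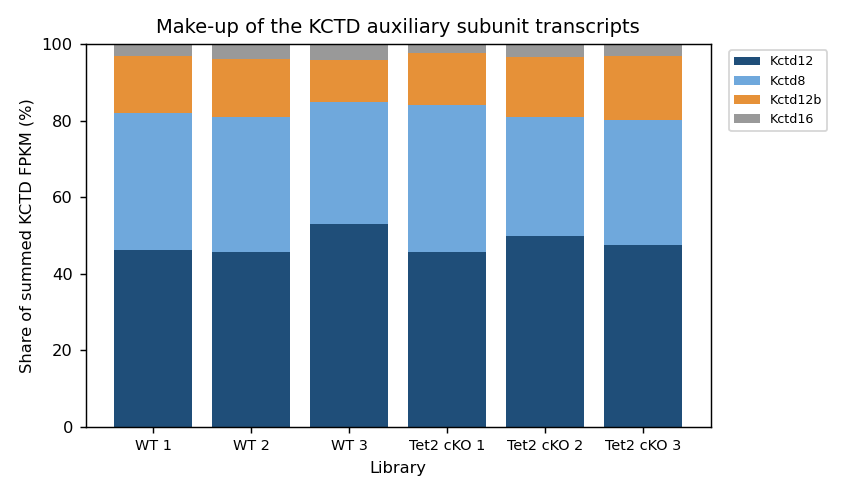
Share (%) of each KCTD gene in the summed FPKM of the 4 KCTD genes, 1 stacked bar per library starting at 0. Kctd12 makes up 45.6% to 52.9% and Kctd16 2.35% to 4.07%, and neither group stands apart.

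The largest variation in these genes lay within WT. WT replicate 3 was the lowest of the 6 libraries for 5 of the 6 genes, all but Kctd16, against 29.1% of all tested genes. Relative to the mean of WT replicates 1 and 2 it stood at 0.790 for Gabbr1, 0.684 for Gabbr2, 0.818 for Kctd12, 0.641 for Kctd8 and 0.521 for Kctd12b. On the log2 scale the median over the 6 genes was -0.44, and over all tested genes it was -0.015. For Kctd12b the drop of -0.94 was exceeded by 2.63% of tested genes, and for Gabbr1 the drop of -0.34 by 14.2%. In bulk tissue, fewer cells of a type and less RNA per cell cannot be told apart.

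WT replicate 3 was also the lowest library for 6 of 8 medial habenula markers and 3 of 3 pan-habenula markers, while it was the highest for the medial marker Calb2. A medial habenula score, the mean of log2(FPKM + 1) over 8 markers, was 4.03, 4.21 and 3.57 in WT and 4.12, 3.70 and 4.01 in Tet2 cKO-labelled libraries. WT replicate 3 was lowest and Tet2 cKO replicate 2 next. The summed level of the pan-habenula markers Pou4f1, Gpr151 and Nwd2 was 58.1 to 132 FPKM for WT and 82.1 to 113 FPKM in Tet2 cKO-labelled libraries. Kctd8 had the same order over the 6 libraries as the medial score. Pearson's r was 0.96 (exact permutation p = 0.00139, adjusted p = 0.025 over 18 relations), and Spearman's rho was 1 (exact permutation p = 0.00278, adjusted p = 0.05, which is not under the threshold). Without WT replicate 3 and Tet2 cKO replicate 2, the libraries farthest from the median score, r was 0.96 over the remaining 4. Over all tested genes, 0.303% had an r with this score at least as high as that of Kctd8. Gene and score come from the same libraries and share their scaling, and within a group 3 libraries are too few for a correlation. The part of the dissection in this relation was not tested.

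None of the other 17 relations passed. With the medial score, r was 0.91 for Gabbr1 (exact permutation p = 0.0181, adjusted p = 0.163; rho 0.77, exact permutation p = 0.103, adjusted p = 0.617), and it fell to 0.15 without the same libraries, so the relation rests on them. For Kctd12b r was 0.77 (exact permutation p = 0.0597, adjusted p = 0.325) and fell to 0.35, and for Gabbr2 it was 0.73 and fell to 0.25. It went from 0.72 to 0.81 for Kctd12 and from 0.22 to 0.58 for Kctd16. With the lateral habenula score r was below 0 for all 6 genes, between -0.67 (Kctd8) and -0.064 (Kctd12b). Without Tet2 cKO replicates 2 and 3, the libraries farthest from its median, it lay between -0.98 (Kctd8) and -0.22 (Kctd16). The markers of this score disagreed in WT replicate 3. Gap43 (272.17 FPKM) and Vgf (54.37 FPKM) were highest there, whereas Pcdh10 (10.84 FPKM), Htr2c (17.25 FPKM) and Chrm3 (2.94 FPKM) were lowest there. The sign of r with the score therefore does not hold for each of its markers. With the thalamus score r lay between -0.068 (Kctd16) and 0.42 (Gabbr2), and without WT replicate 3 and Tet2 cKO replicate 3 between -0.78 (Kctd8) and 0.017 (Gabbr2). Apart from Gabbr1 with the medial score, the exact permutation test gave these relations an adjusted p of 0.325 or more for r, and for rho the smallest was 0.525. The values without 2 libraries come from 4 libraries and were not tested. The lateral habenula markers, all 6 of 6 tested and led by Gap43, summed to 317 to 408 FPKM for WT and 356 to 377 FPKM in Tet2 cKO-labelled libraries. Thalamus markers, 6 of 6 tested and led by Prkcd, summed to 275 to 309 FPKM and 267 to 314 FPKM.

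**Figure D4:**
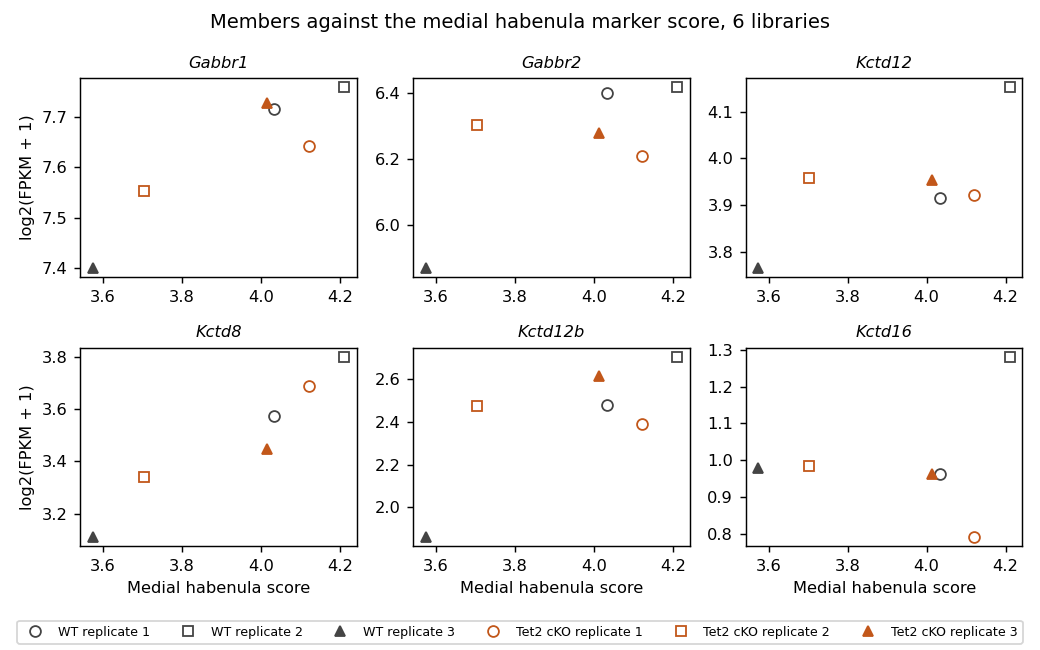
log2(FPKM + 1) of each gene (y axis) against the medial habenula marker score (x axis), 1 point per library (n = 6), with WT in grey, Tet2 cKO in orange and marker shapes for replicates. Kctd8 follows the order of the score, whereas Gabbr2 and Kctd12b are set apart mainly by WT replicate 3.

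For 3 other cell types the ranges of summed marker levels were apart between the groups. These were ependymal cells (Foxj1 and 4 others, 44.8 to 55.8 FPKM for WT and 34.2 to 42.5 FPKM in Tet2 cKO-labelled libraries) and astrocytes (Aqp4 and 4 others, 123 to 158 FPKM and 164 to 171 FPKM) and hippocampal and dentate neurons (Neurod6 and 5 others, 3 of 6 tested, 19.2 to 22.1 FPKM and 15.1 to 17.8 FPKM). All 5 ependymal markers had lower estimates, with a median log2 difference of -0.43. Of these, 4 had ranges apart, against 6.8% of all tested genes. At an unadjusted edgeR p under 0.05 there were 4, against 2.57% of all tested genes, and edgeR called 0 after adjustment. Of the 5 astrocyte markers 4 had a higher estimate, the largest being 0.57 for Aqp4, and Slc1a3 had a lower one (-0.14). Aqp4 stood at 46.7, 43.5 and 28.8 FPKM for WT and 62.5, 59.8 and 55.3 FPKM in Tet2 cKO-labelled libraries. Gfap and Slc1a3 overlapped between the groups. C1ql2 and Wfs1 were the largest hippocampal and dentate terms (means of 6.67 and 9.14 FPKM), and each overlapped between the groups. Neurod6, at a mean of 0.433 FPKM, was not tested. Choroid plexus markers, led by Ttr, summed to 444 to 1386 FPKM for WT and 167 to 817 FPKM, which overlap. All 6 of these markers had lower estimates in Tet2 cKO-labelled libraries, with a median log2 difference of -1.28, against -0.0021 over all tested genes. Of the 6, 5 had an unadjusted p under 0.05 and edgeR called 0 (called 5 with no filter on low values). Leaving out WT replicate 1 moved this median to -0.77, and leaving out Tet2 cKO replicate 1 moved it to -1.88. The part of these cells in the values of the 6 genes was not tested. Sums overlapped for oligodendrocytes (Mbp; 1175 to 1307 and 1245 to 1392 FPKM), microglia (Cx3cr1; 46.3 to 48.9 and 46.3 to 51.6 FPKM) and endothelial cells (Cldn5; 29.9 to 42.8 and 24.2 to 33.3 FPKM). GABAergic neuron markers of the Dlx family, Six3 and Lhx6 summed to at most 1.01 FPKM in any library, and none of the 6 passed the filter. Gad1, Gad2 and Slc32a1, from the list of GABA synthesis, transport and breakdown, did pass it, at means of 4.54, 6.00 and 2.13 FPKM. The low sum therefore does not show that GABAergic cells were absent. No marker was at 0 in all libraries.

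No gene of the pathway around the receptor passed the test either. In 7 lists of genes of GABA-B signalling, 75 of 79 genes were tested and edgeR called 0, with 1 (1.33%) at an unadjusted p under 0.05. The groups' ranges were apart in 4 of the 75 genes (5.33%), near the 6.8% of all tested genes. Of these, 3 were higher and 1 lower, while 3.34% of all tested genes were apart and higher and 3.46% apart and lower. List medians lay between -0.044 and 0.024 on the log2 scale, and the median over all tested genes was -0.0021.

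Over all tested genes, 7132 had a higher and 7407 a lower estimate. The counts of higher and lower estimates per list, here and below, are a description and were not tested. Among G protein subunits, 10 of 19 tested genes had a higher and 9 a lower estimate. Gnao1, the Go alpha subunit through which neuronal GABA-B receptors signal, stood at 61.0, 62.2 and 53.1 FPKM for WT and 56.7, 60.0 and 59.6 FPKM in Tet2 cKO-labelled libraries, a log2 difference of -0.0079 (SE 0.0764). The βγ subunit genes Gnb1 and Gng3 differed by -0.045 (SE 0.0612) and -0.0019 (SE 0.0990). Of the R7 RGS complex, which speeds the shut-off of G proteins at GIRK channels, 1 of 6 tested genes had a higher and 5 a lower estimate. Rgs7bp, Rgs7 and the orphan receptor gene Gpr158 differed by -0.021, -0.013 and 0.097.

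Of the GIRK channel subunit genes, Kcnj9 stood at 51.3, 47.1 and 45.2 FPKM for WT and 47.2, 47.2 and 47.8 FPKM in Tet2 cKO-labelled libraries, and differed by -0.021 (SE 0.0690). Kcnj3 stood at 25.2, 24.9 and 25.1 FPKM for WT and 23.0, 24.5 and 22.8 FPKM in Tet2 cKO-labelled libraries. Its groups did not overlap, but the log2 difference of -0.11 (SE 0.0658) did not pass (unadjusted p = 0.143, edgeR adjusted p = 0.9999). Kcnj5 was at 3.37 FPKM in Tet2 cKO replicate 1, level with the lowest WT library, and at 5.16 and 5.20 FPKM in replicates 2 and 3, against 3.65, 3.56 and 3.37 FPKM in WT. Its log2 difference was 0.37 (SE 0.160, unadjusted p = 0.0446, edgeR adjusted p = 0.9999). Kcnj6, at a mean of 0.988 FPKM, was not tested.

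For presynaptic calcium channels 5 of 10 tested genes had a higher and 5 a lower estimate, the most abundant being the auxiliary subunit genes Cacnb3, Cacnb4 and Cacna2d2, with differences of 0.032, -0.071 and -0.061. Cacna1e, which encodes the R-type channel and was picked after its values were seen, stood at 11.6, 14.0 and 8.68 FPKM for WT and 12.7, 11.1 and 12.8 FPKM in Tet2 cKO-labelled libraries. It was lowest in WT replicate 3, as the receptor genes were. Adenylyl cyclase and protein kinase A genes had 4 higher and 10 lower estimates of 14, with Prkar1a, Prkar1b and Prkaca at 0.014, -0.030 and -0.025.

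Partner and trafficking proteins of the receptor had 3 higher and 11 lower estimates of 14. The estimates were small, from -0.11 to 0.045. App, whose protein binds the sushi domain of GABBR1a, differed by -0.0044, the 14-3-3 gene Ywhaz by 0.024 and Nsf, a vesicle fusion ATPase gene, by -0.039. Genes of GABA synthesis, transport and breakdown had 4 higher and 5 lower estimates of 9. The glial GABA transporter gene Slc6a11 differed by 0.090 and the GABA transaminase gene Abat by 0.059. Slc32a1, the vesicular GABA transporter gene, was picked after its values were seen. It stood at 1.03, 1.22 and 4.45 FPKM for WT and 0.80, 3.85 and 1.42 FPKM in Tet2 cKO-labelled libraries, high in the same 2 libraries that had the lowest medial habenula scores.

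**Figure D5:**
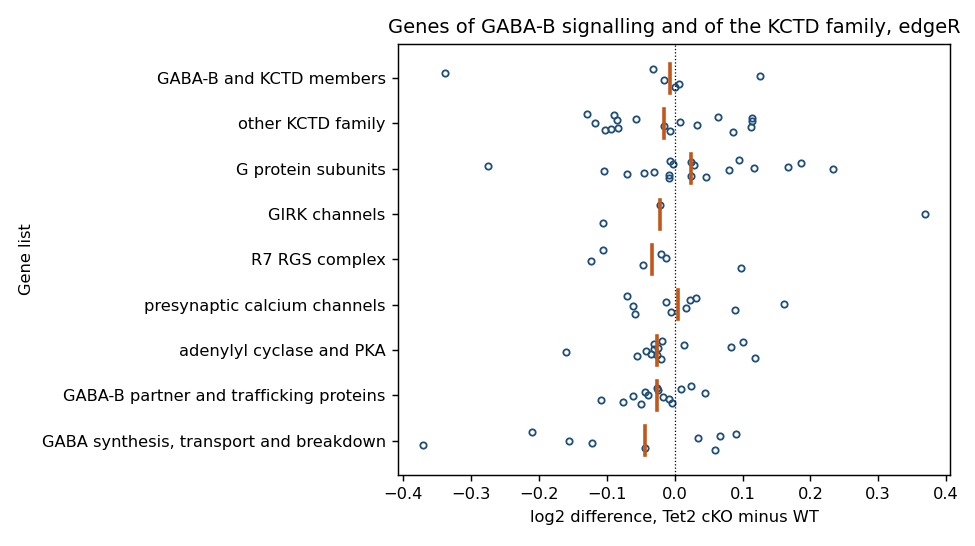
The log2 difference (Tet2 cKO minus WT, edgeR; x axis) of each tested gene in the 6 members, 7 lists of GABA-B signalling genes and the other KCTD family genes, with orange bars for list medians. Most points lie close to 0, and no gene passed the test.

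Within the wider KCTD family of 25 genes, many of which serve as adaptors of cullin ubiquitin ligases, the auxiliary subunits were not the most abundant. Kctd17, Kctd13 and Kctd2 led with means of 60.5, 33.5 and 22.7 FPKM over the 6 libraries. Kctd12 ranked 4th, Kctd8 8th, Kctd12b 17th and Kctd16 21st. Of the other 21 family genes 17 were tested, 7 with a higher and 10 with a lower estimate, from -0.13 to 0.11, and none passed. The groups' ranges were apart and higher in 1 of the 17 (Kctd1) and apart and lower in 2 (Kctd5 and Tnfaip1). With this family added to the 7 signalling lists, ranges were apart in 7 of 92 tested genes (7.61%), against 6.8% of all tested genes. Kctd17, Kctd13 and Kctd2 differed by -0.084, -0.10 and -0.015.

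The tested genes whose log2(FPKM + 1) followed each member most closely over the 6 libraries were Zfp28, Jph4 and Arhgap1 for Gabbr1 (Pearson's r 0.991 to 0.997) and Kpnb1, Htr4 and Exoc2 for Gabbr2 (0.995 to 0.999). They were Tfe3, Colgalt2 and Dot1l for Kctd8 (0.984 to 0.988), and Ccdc71l, Mtmr12 and Dph1 for Kctd12 (0.991 to 0.992). For Kctd12b they were Cnot6l, Lrrc4c and Capza2 (0.995 to 0.999), and for Kctd16 Dvl2, Nostrin and Cnot11 (0.987 to 0.990). With so few libraries an r over 0.95 was common, being reached by 254 tested genes for Gabbr2, 225 for Kctd12b and 28 for Kctd16, so these values are a description only.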

How the data were processed

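Total RNA of the habenula was sequenced in 3 WT and 3 Tet2 cKO libraries, grouped by the sample titles. The tools named, per the submitters' processing notes, are HISAT2 2.0.1, SAMtools 0.1.19, cutadapt 1.9.1 and FastQC 0.10.1, and the build is mm10. How reads were counted, by which annotation and with which strand setting, is not given in the sources used here. The deposited table holds raw counts per gene and library, per the file headers and the whole-number values. It also holds FPKM made by the authors, which matched, within 0.0051 for 100% of values, counts divided by the exonic size and the library total. For the members and Tet2, every start position in the table but that of Gabbr2 differs from GENCODE release M21 (GRCm38). Positions were therefore taken from that release by gene identifier.

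The 14539 of 55359 genes whose mean reached 1 FPKM were tested by edgeR 4.0.16 (quasi-likelihood, TMM, two-sided, no covariate) in R 4.3.3, with Benjamini-Hochberg adjustment over all of them and a threshold of 0.05. Shares and ratios were compared by exact permutation of libraries. DESeq2 1.42.0, limma 3.58.1, other scalings, no filter, a replicate block and leaving out each library were alternatives. FPKM ranges decided whether groups overlapped.

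Members and gene lists were chosen with earlier results of these data known. Named genes were the members, Tet2, the 3 most abundant tested genes of each pathway list with all tested GIRK genes, the first marker of each marker list, and the 3 genes most like each member, leaving out predicted genes and clones. Others were picked after their values were seen. Library totals of 16089676 to 17917987 counts gave the members 44 to 29317 counts each.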

Additional observations from a re-analysis of the deposited data

How the results depend on the processing

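The number of genes called was 0 with edgeR, 4 with DESeq2 and 49 with no filter on low values (5 choroid plexus markers and 1 astrocyte marker among the 49), and 0 to 3 when each library was left out (1 without WT replicate 2 and 3 without WT replicate 3). No member passed the threshold in any of the 13 alternatives, the smallest adjusted p being 0.835 (Gabbr2 without WT replicate 3) and the largest reaching 1. No gene of the pathway lists was called in any of them. Most member differences lie near 0 and changed sign with the library left out. Leaving out each library gave log2 differences of -0.093 to 0.062 for Gabbr1 (below 0 without WT replicate 3 or Tet2 cKO replicate 3), -0.14 to 0.094 for Gabbr2 (below 0 without WT replicate 3 or Tet2 cKO replicate 2) and -0.21 to 0.14 for Kctd8 (above 0 without WT replicate 1, WT replicate 2 or Tet2 cKO replicate 2). It gave -0.096 to 0.096 for Kctd12 (above 0 without WT replicate 2 or Tet2 cKO replicate 1), -0.12 to 0.35 for Kctd12b (below 0 without WT replicate 3) and -0.44 to -0.13 for Kctd16. Upper-quartile scaling gave -0.0029 for Gabbr1, and limma gave 0.00060 and 0.0012 for Kctd12 with pseudocounts of 1 and 0.1. The same leave-one-out ranges were -0.061 to 0.049 for the log2 ratio of Gabbr1 to Gabbr2, -0.047 to 0.067 for that of KCTD to receptor transcripts, and, in percentage points, -2.49 to 1.06 for the Kctd8 share, -1.82 to 1.73 for the Kctd12 share, 0.338 to 2.51 for the Kctd12b share and -1.04 to -0.458 for the Kctd16 share.

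The labels do not say whether replicate numbers pair the libraries, and correlations over 3 libraries per group cannot decide it. Same-numbered libraries had correlations of deviations of -0.089, 0.25 and -0.13, and not every library correlated best with its own number. With the replicate number as a block edgeR called 0 genes, as without it, and Gabbr1, Gabbr2, Kctd8, Kctd12, Kctd12b and Kctd16 differed by 0.0076, 0.027, -0.012, -0.0074, 0.17 and -0.33. An exact sign-flip test of same-numbered pairs gave p = 0.25 or more for the shares and ratios, and 0.25 is the smallest it can give. Kctd16 had the fewest counts, 44 to 80 per library, and the widest interval (SE 0.234), though that of Kctd12b at 229 to 449 counts was nearly as wide (SE 0.217).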
